A study of Mus musculus with 8 samples.

Results

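Macrophages of fat tissue are usually recognised by a small set of transcripts, and 9 such genes are described here: Adgre1, Csf1r, Cd68, Cd14, Fcgr1, Mertk, Spi1, Aif1 and Csf1. They were chosen by symbol, as a named list, and each matched exactly 1 of the 31854 rows of the deposited count table. RNA was sequenced from epididymal white adipose tissue (the visceral depot of the epididymis) of mice kept on a high-fat diet. Wild-type mice (WT) gave 4 libraries, numbered 1, 2, 3 and 5, and 4 came from mice in which serine 273 of PPAR-gamma is replaced by alanine (S273A, replicates 2, 3, 4 and 6). All 8 libraries share the tissue and the diet; zygosity, age, sex and the length of feeding are not stated in the labels. Nor do the labels tie each library to its own animal, so the p-values cover the spread among the libraries, which may be technical. The comparison asks which transcripts differ in the depot when this serine, a phosphorylation site of the nuclear receptor, is absent.

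Macrophages depend on signalling through the CSF1 receptor for survival and growth, and on the transcription factor PU.1 for their identity. In obesity they gather around stressed and dying fat cells, where they take up lipid and debris. Of the 9 genes, Csf1r and Spi1 encode that receptor and that factor, Adgre1, Fcgr1, Cd14 and Mertk encode other cell surface receptors, Cd68 encodes a glycoprotein of the endosome and lysosome, and Aif1 encodes IBA1, a calcium- and actin-binding protein. Csf1 stands apart: it encodes the growth factor that Csf1r binds, and it is made by stromal and vascular cells as well as by macrophages, so it does not mark macrophages in the way the other 8 do.

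None of the 9 genes was called as different between the genotypes, which does not show that their levels are equal. The adjusted p was 0.9999 for each of them in edgeR's quasi-likelihood test with Benjamini-Hochberg adjustment over 15667 rows, and 0 of the 9 had an unadjusted p under 0.05. With a replicate block Cd14 (0.035) and Mertk (0.0397) had an unadjusted edgeR p under 0.05. That block compares the genotypes only within replicate numbers 2 and 3, which both have, and the numbers are not known to mark pairs. Without WT replicate 5 Aif1 had an unadjusted edgeR p of 0.0457. None of these passed the adjustment. Among all tested rows 0% passed the adjusted threshold of 0.05, and 1.46% (229 rows) had an unadjusted p under 0.05, 0.549% lower and 0.913% higher in S273A. DESeq2 also called 0 of the 9, and so did limma-voom. Estimates were below 0 in S273A for 6 of the 9 genes and above 0 for the other 3, and their median log2 fold change was -0.12; over all tested rows 49.3% of estimates were below 0 and the median was 0.0015. The median of the 9 depended on single libraries: it was -0.05 without S273A replicate 2, -0.06 without WT replicate 2 and -0.07 without S273A replicate 4. The libraries of the 2 genotypes overlapped for all 9 genes, while 0.53% of tested rows lay wholly lower and 0.657% wholly higher in S273A.

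**Figure D1:**
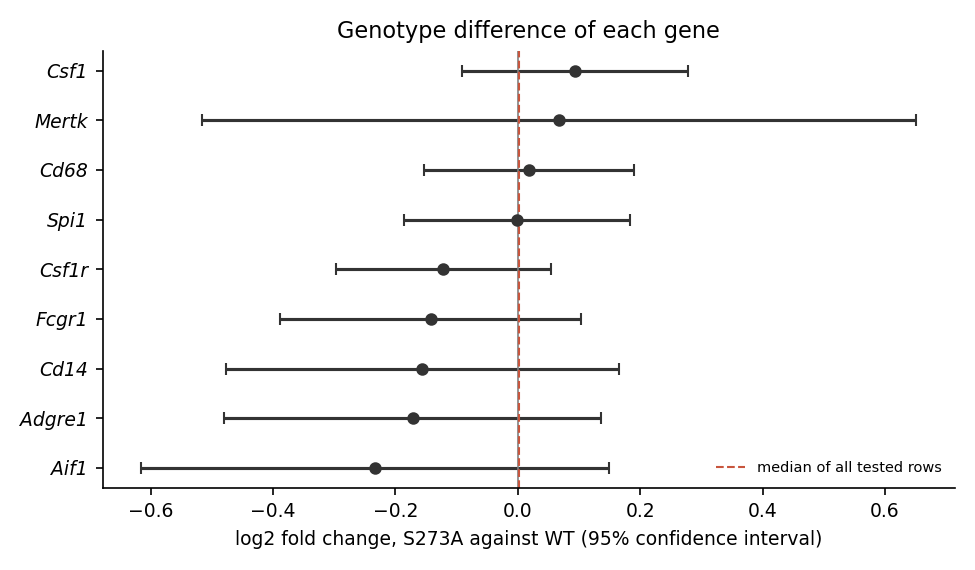
Log2 fold change of each gene in S273A against WT (horizontal axis) with its 95% confidence interval, from edgeR's fit of 4 against 4 libraries; the dashed line is the median of all tested rows. Every interval spans 0, and that of Mertk is the widest, from -0.52 to 0.65.

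Total counts ran from 14880239 to 18194889 per library, and the 9 genes together took between 0.184% (S273A replicate 2) and 0.241% (WT replicate 2) of them. All 9 adipocyte markers looked for were tested, with summed levels of 5465 to 8407 normalised CPM, the read count scaled to the effective library size, in WT and 6343 to 8259 CPM in S273A. The 6 epididymis and testis markers that had a row summed to at most 0.23 CPM in any library. Other cell types of the depot were present at levels that also moved between libraries: B and plasma cell markers summed to 135 to 438 CPM in WT and 153 to 416 CPM in S273A, T and NK cell markers to 39.0 to 88.6 and 40.7 to 88.9 CPM, and mast cell markers to 156 to 296 and 130 to 226 CPM. Dendritic cell markers summed to 244 to 341 CPM in WT and 227 to 292 in S273A, and the 7 neutrophil markers to 5.12 to 11.8 and 7.14 to 38.3 CPM. The neutrophil sum of 38.3 CPM belonged to S273A replicate 6 alone, and replicates 2, 3 and 4 were at 7.47, 7.14 and 9.88 CPM. The sums were 108 to 174 and 157 to 214 CPM for mesothelial markers, 235 to 350 and 259 to 499 CPM for red blood cell markers, 729 to 1016 and 856 to 1071 CPM for endothelial markers, and 4571 to 5726 and 4072 to 5708 CPM for progenitor and fibroblast markers. None of the tested genes of these 11 lists was called; at an unadjusted p under 0.05 in edgeR there was 1, the red blood cell gene Epb42, and there was none in the lists of macrophage genes and pathways described below. In whole-tissue RNA, fewer cells of a type and less RNA per cell cannot be told apart.

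Per kilobase of the length given for each row, the 9 genes spanned about an order of magnitude in level. Cd68 and Adgre1 stood highest, at 206 and 198 CPM per kb averaged over the 8 libraries; Cd68 was above Adgre1 in 3 of 8 libraries, so their order was not stable. Csf1r followed at 133 CPM per kb, below Adgre1 in all 8 libraries. Spi1 and Mertk came next at 53.6 and 51.3 CPM per kb, with Spi1 above Mertk in 5 of 8 libraries. Fcgr1 (20.2), Cd14 (18.5), Csf1 (18.1) and Aif1 (16.9 CPM per kb) formed the lowest group, and each was above the next in 5 of 8 libraries. The growth factor lay 7.33-fold below its receptor on this scale. Lengths are those of the annotation used for counting; isoforms of other lengths would shift these levels.

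**Figure D2:**
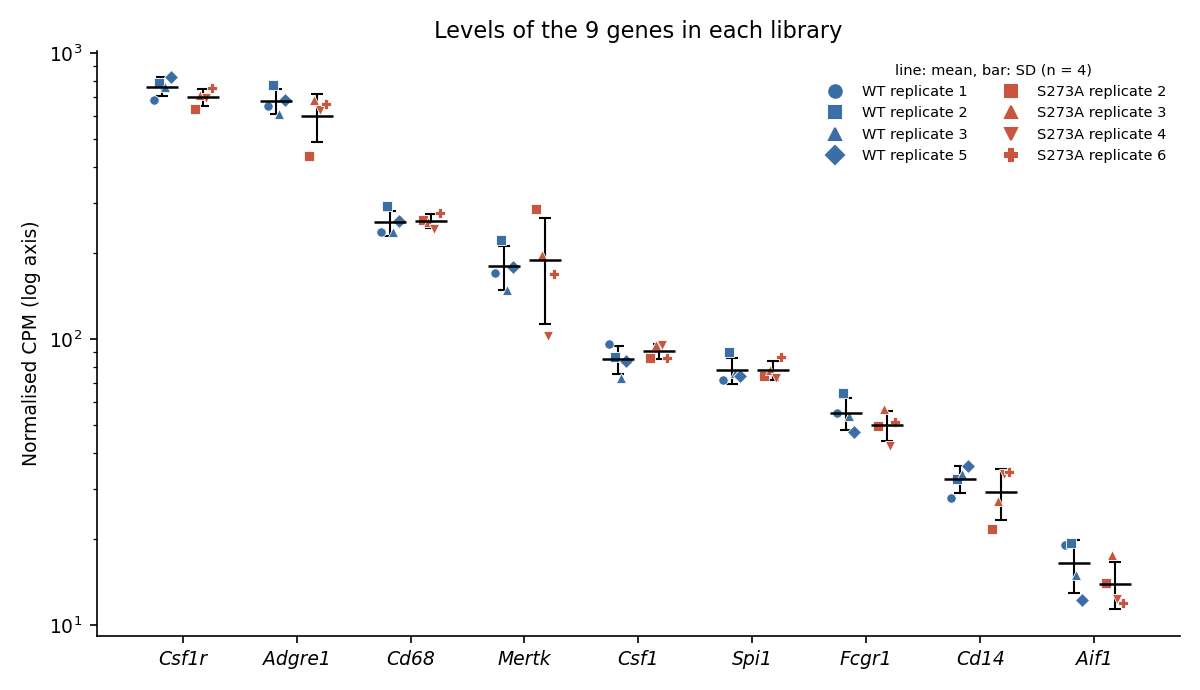
Normalised CPM of each gene (vertical log axis) in the 4 WT (blue) and 4 S273A (red) libraries, with a marker shape for each replicate number, the mean as a line and the SD as a bar. WT and S273A overlap for every gene; Mertk in S273A runs from 102 to 285 CPM and Adgre1 has 1 low S273A library at 436 CPM.

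Csf1 was the ligand of the set and Csf1r its receptor. Csf1 stood at 96.2, 86.7, 73.0 and 84.0 CPM in WT replicates 1, 2, 3 and 5 and at 86.1, 95.5, 95.6 and 85.6 CPM in S273A replicates 2, 3, 4 and 6. The S273A libraries lay inside the upper part of the WT range, and the estimated log2 difference was 0.09 (SE 0.08, 95% interval -0.09 to 0.28). Leaving out WT replicate 3, its lowest library, took the estimate to 0.03, and leaving out WT replicate 1 took it to 0.16. On GRCm38, Csf1 (row uc008qxk.2) spans 107741048 to 107760469 of chromosome 3, minus strand, with up to 9 exons in a transcript; all gene positions below are on this build.

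Csf1r had the highest read level of the 9 genes and one of the smallest spreads. It was at 683, 787, 761 and 821 CPM in the WT libraries and at 639, 715, 695 and 757 CPM in the S273A libraries, in the same order of replicates. The lowest value belonged to S273A replicate 2 and the highest to WT replicate 5. Its log2 fold change was -0.12 (SE 0.08, interval -0.30 to 0.05; unadjusted p 0.154 in edgeR), so the interval reached from 0.81 to 1.04 of the WT level; without S273A replicate 2 the estimate was -0.08. Csf1r (row uc008fbn.1) spans 61100598 to 61132149 of chromosome 18, plus strand. Of its 5774 annotated exon bases, 15.1% also belong to Hmgxb3 on the opposite strand. The libraries hold no strand information, so reads from that stretch are uncertain; the other 8 genes share no exon bases with another annotated gene.

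Within each library, the Csf1 level was 14.1%, 11.0%, 9.60% and 10.2% of the Csf1r level in WT and 13.5%, 13.4%, 13.8% and 11.3% in S273A, on the CPM scale. All 4 S273A libraries lay above 3 of the WT libraries, but WT replicate 1 had the highest ratio of all. The mean log2 ratio was 0.22 higher in S273A, which did not pass an exact two-sided permutation test of 4 against 4 libraries (p = 0.2, where 0.0286 is the smallest possible). Without WT replicate 1 the difference was 0.33 and the exact permutation p 0.0571, the smallest that 3 against 4 libraries can give, so that test could not reach 0.05. Il34, the gene of the second ligand of this receptor, was at 16.1 ± 0.72 CPM in the WT libraries and 15.7 ± 2.61 CPM in the others (SD, n = 4 each; log2 fold change -0.04, interval -0.29 to 0.21). Among the 9 colony-stimulating factor and receptor genes, 7 were tested and 0 were called. Csf2rb (144 ± 17.7 and 146 ± 17.6 CPM) and its near-identical neighbour Csf2rb2 (103 ± 16.2 and 106 ± 13.1 CPM), chains of the receptors for related cytokines, were the most abundant of the rest. Reads of these 2 copies may be split between them.

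Spi1, which encodes PU.1, had the estimate closest to 0. Its levels were 72.0, 90.0, 75.8 and 74.2 CPM in WT and 74.0, 78.1, 73.2 and 86.5 CPM in S273A. WT replicate 2 and S273A replicate 6 stood above the other 6 libraries, and the means were 78.0 ± 8.15 and 77.9 ± 6.10 CPM (SD, n = 4 each). This gave a log2 fold change of -0.001 (SE 0.08), with an interval of -0.19 to 0.18 that bounds a difference at 0.88 to 1.14 of the WT level; its sign turned in 10 of 16 alternatives, so no direction can be given. Spi1 (row uc008kuj.2) spans 91082390 to 91115756 of chromosome 2, plus strand.

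Cd68 had the same shape across libraries. It was at 237, 291, 236 and 259 CPM in WT and at 260, 257, 242 and 276 CPM in S273A, highest in WT replicate 2 and S273A replicate 6. The difference was 0.02 on the log2 scale (SE 0.08, interval -0.15 to 0.19), with a sign that turned when WT replicate 1, WT replicate 3 or S273A replicate 6 was left out. The ratio of Cd68 to Spi1 on the CPM scale was 3.28 ± 0.16 over WT libraries and 3.33 ± 0.14 over S273A libraries (SD, n = 4 each), and its highest and lowest libraries differed by 1.13-fold, less than those of either gene alone (1.23-fold for Cd68 and 1.25-fold for Spi1). Cd68 (row uc007jqy.2) spans 69664213 to 69666153 of chromosome 11, minus strand, in up to 6 exons.

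PU.1 binds purine-rich DNA with a GGAA core, often preceded by GA. The 250 bases before the start site were therefore searched on both strands for GAGGAA, spelled TTCCTC on the other strand, in the 5 genes whose RefSeq promoter entry was used here (Cd68, Fcgr1, Mertk, Aif1 and Csf1). No RefSeq promoter entry was at hand for Spi1 or Adgre1. Those of Csf1r and Cd14 are not used here and were left out without regard to a match. A match stood in 3 of the 5 (Cd68, Fcgr1 and Aif1), against 23.3% of the 32851 promoter windows of the table. The Aif1 match lies inside the first exon of 1 GENCODE transcript of that gene, which reaches 16 bases into the window; the other 4 windows touch no annotated exon. Printed are Cd68 and Fcgr1, whose levels followed Spi1 most closely of these 5, and Mertk, which varied most; capitals mark the match. The windows are chr11:69666171-69666420 on the minus strand, chr3:96293970-96294219 on the minus strand and chr2:128698665-128698914 on the plus strand (GRCm38.p6), each read 5′ to 3′ along the gene's own strand.
Cd68: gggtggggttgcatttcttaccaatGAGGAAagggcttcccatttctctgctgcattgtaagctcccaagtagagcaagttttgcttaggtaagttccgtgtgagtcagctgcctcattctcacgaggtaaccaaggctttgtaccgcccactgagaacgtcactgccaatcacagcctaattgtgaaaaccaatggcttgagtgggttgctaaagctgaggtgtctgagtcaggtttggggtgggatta
Fcgr1: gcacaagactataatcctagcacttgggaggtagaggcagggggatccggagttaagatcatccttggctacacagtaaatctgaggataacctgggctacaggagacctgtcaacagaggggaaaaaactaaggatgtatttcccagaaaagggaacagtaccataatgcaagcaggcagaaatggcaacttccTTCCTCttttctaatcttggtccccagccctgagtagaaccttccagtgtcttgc
Mertk: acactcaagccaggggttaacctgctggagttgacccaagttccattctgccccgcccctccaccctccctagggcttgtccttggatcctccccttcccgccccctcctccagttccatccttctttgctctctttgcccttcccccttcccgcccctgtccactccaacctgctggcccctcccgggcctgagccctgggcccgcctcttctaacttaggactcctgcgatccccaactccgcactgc
The Cd68 match reads on the gene's own strand and begins 225 bases before the start, and the Fcgr1 match reads on the other strand, 55 bases before it. Matches describe letters in these windows and say nothing of binding. Over the 8 libraries, with each genotype centred on its mean, Pearson's r with Spi1 was 0.87 for Cd68 and 0.67 for Fcgr1. It was 0.27 for Mertk, 0.20 for Aif1 and -0.18 for Csf1, so Aif1, with a match, lay below Mertk, without one. These values are given as a description of libraries that share depth and cell mixture.

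Of the 14 genes with a row in the list of PU.1, its relatives and other transcription factors of macrophages, 14 were tested and 0 called; 8 estimates were below 0 and the median was -0.01. Irf8, a partner of PU.1, was at 151 ± 19.1 CPM in WT libraries and 149 ± 20.1 CPM in S273A libraries (SD, n = 4 each). The 2 most abundant were Zeb2 (747 ± 23.6 and 725 ± 25.0 CPM) and Cebpa (347 ± 56.8 and 351 ± 30.0 CPM), the latter also a factor of adipocytes. All 3 differed by less than the spread between libraries.

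Adgre1 encodes F4/80, the classic surface marker of mouse macrophages. It was at 652.5, 771, 613 and 685 CPM in WT and at 436, 687, 630 and 662 CPM in S273A. A single library, S273A replicate 2, lay far below the other 7, which ranged over 1.26-fold. The log2 fold change was -0.17 (SE 0.14, interval -0.48 to 0.14; edgeR unadjusted p 0.241); it was -0.04 without S273A replicate 2 and -0.11 without WT replicate 2. Adgre1 (row uc008det.2) spans 57358691 to 57483527 of chromosome 17, plus strand, in up to 23 exons. Its relative Adgre5, the gene of CD97, and Adgre4 were not called either, and of the 8 tested relatives of Adgre1, Cd68 and Aif1 (themselves included) 0 were called. The lysosomal membrane genes Lamp1 (867 ± 49.7 and 867 ± 30.6 CPM) and Lamp2 (569 ± 29.1 and 555 ± 7.36 CPM), of the family to which Cd68 belongs, were the most abundant of the other genes of that list.

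Cd14, the co-receptor that hands lipopolysaccharide to TLR4, shared the low library. Its levels were 27.8, 32.3, 33.8 and 35.9 CPM in WT and 21.6, 27.2, 33.6 and 34.1 CPM in S273A, lowest in S273A replicate 2. The log2 fold change of -0.16 (SE 0.14, interval -0.48 to 0.16) became -0.04 without that library. Cd14 (row uc008eof.2) spans 36725067 to 36726798 of chromosome 18, minus strand. Tlr4, the signalling receptor, was at 216 ± 21.9 CPM in WT libraries and 208 ± 14.8 CPM in S273A libraries, and Lbp, the serum protein that binds lipopolysaccharide, at 240 ± 71.2 and 239.5 ± 37.6 (SD, n = 4 each). Of 14 tested genes of the lipopolysaccharide receptor and its adaptors, 0 were called and 10 estimates were below 0, with a median of -0.04.

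Fcgr1 encodes CD64, the high-affinity receptor for immunoglobulin G. It stood at 55.1, 64.7, 53.7 and 47.4 CPM in WT and at 49.5, 57.1, 42.2 and 51.4 CPM in S273A, with S273A replicate 4 lowest and WT replicate 2 highest. Its estimate was -0.14 on the log2 scale (SE 0.11, interval -0.39 to 0.10), and it was -0.06 without WT replicate 2 and -0.07 without S273A replicate 4. Fcgr1 (row uc008qmr.1) spans 96282909 to 96293969 of chromosome 3, minus strand, in up to 6 exons. Fcer1g, the signalling chain that Fcgr1 needs, was at 74.9 ± 8.21 and 71.5 ± 8.28 CPM (SD, n = 4 each), and Fcgr3 and Fcgrt at 132 ± 24.2 and 129 ± 16.7 and at 224 ± 9.85 and 221 ± 11.8 CPM. The list of 8 Fc receptor genes had 8 tested, 0 called and a median of -0.03.

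Aif1 had the lowest read level and the largest estimate of the 9. It was at 19.0, 19.4, 14.9 and 12.3 CPM in WT and at 13.99, 17.6, 12.3 and 11.9 CPM in S273A. WT replicates 1 and 2 were the highest, but WT replicate 5 stood as low as S273A replicates 4 and 6. Its counts were 194 to 341 per library, so counting error alone gave a coefficient of variation near 6.06% in WT, where the observed one was 20.9%. For this gene the log2 fold change was -0.23 (SE 0.17, interval -0.62 to 0.15), between -0.14 without WT replicate 2 and -0.36 without S273A replicate 3; with a replicate block it was -0.12. Aif1 (row uc008cgm.1) spans 35170991 to 35176068 of chromosome 17, minus strand.

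Mertk, the receptor kinase by which macrophages bind and clear dying cells, varied between libraries far more than the other 8 genes. It was at 170, 222, 148 and 179 CPM in WT and at 285, 196, 102 and 169 CPM in S273A, so the highest and the lowest of the 8 libraries were both S273A. The counts in those libraries, replicates 2 and 4, were 5121 and 1778, and the highest stood 2.80-fold above the lowest. The coefficient of variation was 17.4% in WT and 40.3% in S273A, where counting error gave 1.83% and 1.74%. The genotype means were 180 ± 31.3 and 188 ± 75.9 CPM (SD, n = 4 each), and the log2 fold change of 0.07 (SE 0.26, interval -0.52 to 0.65) was the least certain of the 9. It was -0.21 without S273A replicate 2, 0.27 without S273A replicate 4 and -0.01 in limma-voom, so it has no direction that holds. Mertk (row uc008mgt.1) spans 128698956 to 128802894 of chromosome 2, plus strand, in up to 19 exons.

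No gene of apoptotic cell uptake was called. Axl, a second receptor of Mertk's family, was at 607 ± 38.4 CPM in WT libraries and 560 ± 61.5 CPM in S273A libraries, and their ligand Gas6 at 232 ± 24.8 and 252 ± 14.9 (log2 fold change 0.12, interval -0.06 to 0.30). The most abundant were Mfge8 (946 ± 123 and 941 ± 110 CPM), a bridge between dying cells and integrins, and the scavenger receptor gene Stab1 (737 ± 131 and 678 ± 122 CPM). Of 13 tested genes of this list, Mertk included, 0 were called and 10 estimates were below 0, with a median of -0.05.

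The spread of each gene was set beside that of rows at a like level, those within 0.5 on the log2 CPM scale. The within-genotype SD of log2 CPM was 0.47 for Mertk against a median of 0.091 over 1213 rows, and 98.8% of those rows varied less. Cd14 (0.25), Aif1 (0.28), Adgre1 (0.24) and Fcgr1 (0.18) also lay above most of their rows, of which 90%, 89.3%, 84.8% and 83.2% varied less. Csf1 (0.13), Spi1 (0.13) and Cd68 (0.11) were nearer the middle, with 71.9%, 70.2% and 57.6% of rows below them. Csf1r (0.11) was the only gene of the 9 that varied less than the median of its rows (0.13).

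**Figure D3:**
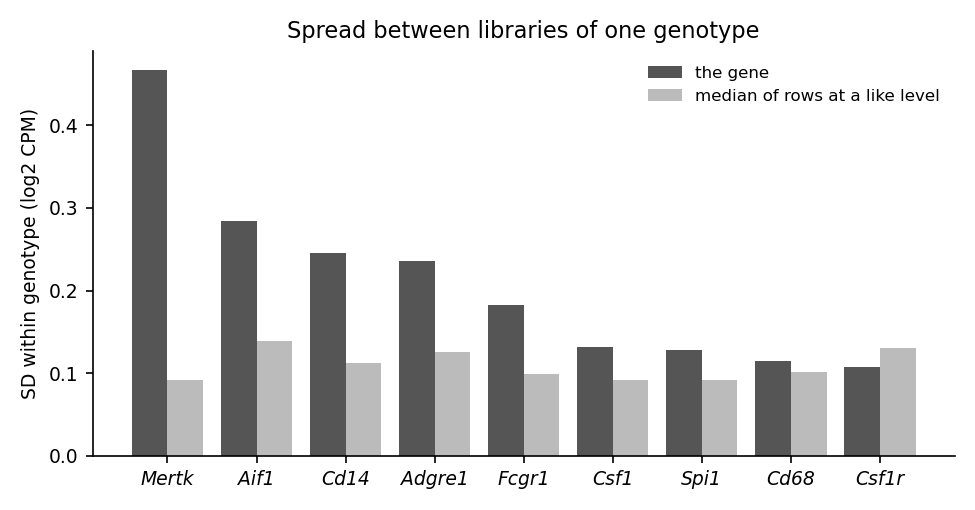
SD of log2 CPM between libraries of one genotype (dark bars, pooled over both genotypes) and the median SD of rows within 0.5 of the gene's mean log2 CPM (light bars). The Mertk bar is at 0.47 against 0.091; Csf1r is the gene whose bar is the shorter of its pair.

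The libraries with extreme values differed from gene to gene. WT replicate 2 had the highest level for 5 of the 9 genes (Adgre1, Cd68, Fcgr1, Spi1 and Aif1), and S273A replicate 2 the lowest for 3 (Adgre1, Csf1r and Cd14) and the highest for 1 (Mertk). In S273A replicate 2 Adgre1 lay 0.54 and Cd14 0.49 below their means of 8 libraries on the log2 CPM scale, Mertk lay 0.69 above its mean, and Cd68 (0.02) and Spi1 (-0.07) lay near theirs. In S273A replicate 4 Mertk lay 0.79 below its mean and Cd14 0.14 above. In that library pair, then, Cd14 and Mertk went opposite ways, and over the 8 libraries their centred Pearson's r was -0.72, as a description. Other values of these libraries moved as well. WT replicate 2 had the lowest adipocyte marker sum (5465 CPM). It also had the highest sums of B and plasma cell (438 CPM) and mast cell markers (296 CPM). S273A replicate 2 had the lowest mast cell sum (130 CPM). The dendritic cell sum was highest in WT replicate 2 (341 CPM) and lowest in S273A replicate 2 (227 CPM). Most of it was Itgax, at 268.7 and 161.5 CPM in these libraries. Zbtb46, the next most abundant gene of that list, was lowest in WT replicate 2 (27.4 CPM), so the sum does not speak for every dendritic cell gene. The part of these sums in the levels of the 9 genes was not tested.

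**Figure D4:**
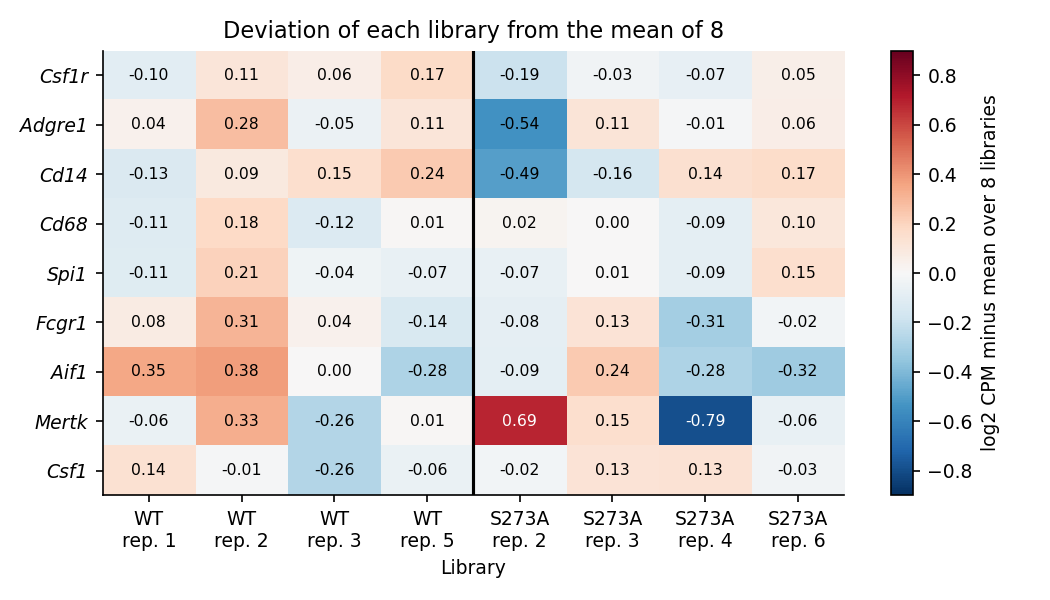
Log2 CPM of each gene in each library minus its mean over the 8 libraries; red is above and blue below the mean, and the vertical line parts WT from S273A. Mertk reaches 0.69 in S273A replicate 2 and -0.79 in S273A replicate 4, while Adgre1 and Cd14 are at -0.54 and -0.49 in S273A replicate 2.

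The Mertk level was 26.1%, 28.9%, 24.1% and 26.1% of the Adgre1 level in WT, and 65.5%, 28.6%, 16.2% and 25.6% in S273A replicates 2, 3, 4 and 6. Replicates 3 and 6 of S273A thus lay inside the WT range of 24.1% to 28.9%, and replicates 2 and 4 lay well outside it, on opposite sides. A fit without those 2 libraries was added once their values had been seen; the log2 fold changes in it were 0.02 for Mertk and -0.02 for Adgre1, and 0 of the 9 genes were called.

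As a sum, the 9 genes amounted to 2013, 2365, 2008 and 2197 CPM in WT and to 1866, 2131, 1926 and 2134 CPM in S273A, most of it from Csf1r and Adgre1. The sums overlapped, and the S273A mean was 132 CPM lower, less than the difference between the highest and lowest WT libraries. The difference was 58.6 CPM without WT replicate 2 and 82.2 CPM without S273A replicate 2, in the same direction. Another 20 genes high in monocytes and macrophages were counted beside them: 20 were tested, 0 were called, 19 had estimates below 0 and the median was -0.07, with a range of -0.26 to 0.01. Markers of some other cell types had estimates above 0, with none called: 8 of 8 endothelial (median 0.09), 7 of 7 mesothelial (0.30), 6 of 6 red blood cell (0.60) and 8 of 9 adipocyte genes (0.05). Those of others were more often below 0: 6 of 8 progenitor and fibroblast (median -0.05), 6 of 8 T and NK cell (-0.11) and 4 of 6 mast cell genes (-0.25). Above 0 were 4 of 6 B and plasma cell genes (median 0.11) and both tested neutrophil genes (0.41). Dendritic cell genes were split, with 4 below and 4 above 0 (median -0.05). The part of these cell types in the macrophage estimates was not tested. Of the 20 monocyte and macrophage genes, Lyz2, lysozyme (1287 ± 139 and 1261 ± 122 CPM), and the protease gene Ctss (778 ± 149 and 721.5 ± 94.1 CPM) were the most abundant (SD, n = 4 each). The summed level of the 20 was 6863 to 8632 CPM in WT and 6173 to 7669 CPM in S273A. It was highest in WT replicate 2 and lowest in S273A replicate 4. These genes share cells and libraries, so their signs are not separate observations.

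Gdf3, a secreted factor of the TGF-beta family, had the smallest p of the whole fit, although it did not pass (edgeR adjusted p 0.646), and its level was set against that of the 8 genes other than Csf1. It stood at 9.57, 7.84, 8.17 and 8.42 CPM per 1000 CPM of those genes in WT and at 1.38, 1.22, 4.05 and 1.71 in S273A replicates 2, 3, 4 and 6. The genotypes did not overlap in this ratio, as they did not in Gdf3 itself, while the 8 genes each overlapped. The summed level of the 8 genes ran only from 1779.5 (S273A replicate 2) to 2278.1 CPM (WT replicate 2). The ratio therefore follows Gdf3, which was taken for its p in this same fit, and is no separate result. The highest S273A value belonged to replicate 4, the library with the lowest Mertk level.

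**Figure D5:**
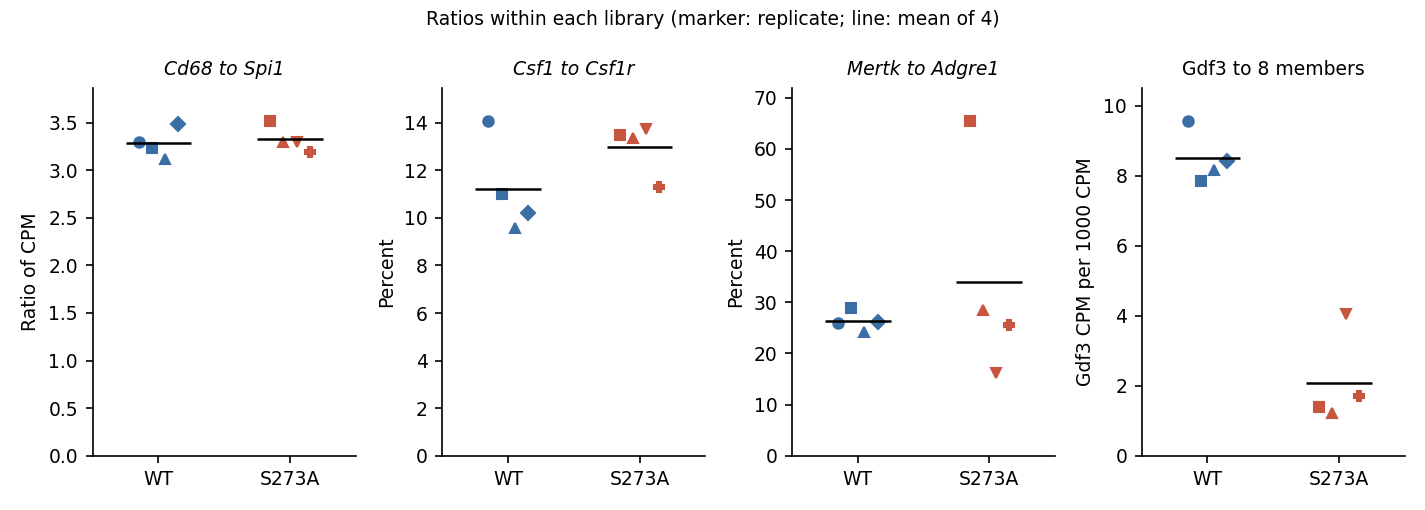
Ratios within each library, from left: Cd68 to Spi1, Csf1 as percent of Csf1r, Mertk as percent of Adgre1, and Gdf3 CPM per 1000 CPM of the 8 genes other than Csf1; all axes start at 0, markers are replicates and lines are means of 4. Cd68 to Spi1 is nearly flat at 3.11 to 3.52, and Mertk to Adgre1 spreads only in S273A. The Gdf3 ratio separates the genotypes, as the Gdf3 level alone does.

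The rows whose centred log2 CPM was most like the mean of the 8 genes other than Csf1, over 8 libraries, had Pearson's r between 0.976 and 0.994. Named genes among them were Sh3bp2, an adaptor protein, Pirb, an inhibitory receptor of myeloid cells, Ccr1, a chemokine receptor, and Fermt3, which activates integrins in blood cells, together with Vps4b, Kat7, Rpgrip1, Arhgap39 and 2310035C23Rik. With Spearman's coefficient 0 of the 10 stayed among the closest, so with 8 libraries this ranking was not stable. The rows closest to Csf1 were the chemokine gene Ccl7 (0.986), Agfg1 (0.981) and 4632427E13Rik (0.977), of which Spearman's coefficient kept 1. The 10 rows closest to Mertk were looked for after its spread had been seen. First came Med12l (0.993), Amdhd2 (0.992), Vav2 (0.989), Abi3 (0.987), Trim29 (0.986) and Ceacam16 (0.984). After them stood the transferrin receptor gene Tfrc (0.984), Plxnc1 (0.984), Gm14461 (0.983) and Plekhm2 (0.982). Spearman's coefficient kept 4 of these 10.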

How the data were processed

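Whole-tissue RNA of 8 libraries was depleted of ribosomal RNA and made into libraries without strand information, per the labels' protocols. The authors deposited whole-number read counts per gene row, not normalised, and a further column of feature lengths, another quantity in bases, per the file headers. The submitters' processing notes name featureCounts 1.5.2, HISAT2 2.0.5, edgeR 3.3.0 and Picard 2.9.2, and the build mm10, without roles; how duplicates, multiply mapped and overlapping reads were treated is not given in the sources used here.

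Counts were fitted with edgeR 4.0.16 in R 4.3.3: filterByExpr defaults (15667 of 31854 rows kept), TMM scaling, glmQLFit with the robust option and glmQLFTest, with genotype as the only term and Benjamini-Hochberg adjustment over all tested rows at 0.05. Standard errors came from the F statistic. CPM are counts over TMM-scaled library sizes; log2 CPM used a prior count of 2. Alternatives used DESeq2 1.42.0, limma 3.58.1, other scaling factors, no filter, a term for replicate number, and each library left out. The test was checked on simulated counts, where it recovered most of the larger changes and few of the smallest, and made more false calls than its nominal rate. Simulated rows varied independently of each other, while rows of the real libraries share cell mixture. The check therefore does not give the error rate in the real counts. Positions and overlaps came from GENCODE M21 on GRCm38, and promoters from RefSeq on GRCm38.p6.

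The 9 genes and the 18 other lists were chosen with earlier results of these data known. The 9 genes were always named; of each list the 2 most abundant other genes and a few set names (Il34, Tlr4, Axl, Gas6, Fcer1g and Irf8) were to be named; an item that the rule takes is not reported here. Genes of the 11 lists of other cell types are given by sums and counts only, apart from Epb42, Itgax and Zbtb46. Genes of like pattern needed a mean of 2 CPM.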

Additional observations from a re-analysis of the deposited data

Results flagged for a closer look

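In S273A replicate 6 the log2 ratio of Csf1 to Csf1r was -3.15, and its gap to the nearest S273A library was 0.857 of the range of the 4, above Dixon's 95% critical value for groups of 4. It was the lowest S273A ratio and lay inside the WT range. In all 22 such groups of 4 were examined and 1 was marked; chance marks about 1 in 20. The low Adgre1 level of S273A replicate 2 had a gap of 0.772 of its range and was not marked.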

How the results depend on the processing

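No alternative called any of the 9 genes, and the smallest adjusted p among them over the 16 alternatives was 0.999. Estimates for Adgre1, Csf1r, Cd14, Fcgr1 and Aif1 stayed below 0 and that of Csf1 above 0 in all 16. Over all rows edgeR called 0; DESeq2 called 1 (Gdf3), and edgeR called 1 without S273A replicate 4 and 1 without S273A replicates 2 and 4, Gdf3 each time, so the fits without 1 library gave 0 to 1. The cause was not tested. The sign of Spi1 turned, from -0.001, to 0.00067 with RLE factors, 0.0037 with upper-quartile factors, 0.0018 without composition factors, 0.00041 in DESeq2, 0.00055 in limma-voom and 0.068 without S273A replicates 2 and 4. Mertk turned to -0.0104 in limma-voom. Without 1 library Spi1 ran from -0.055 to 0.075, Cd68 from -0.0169 to 0.0859 and Mertk from -0.21 to 0.27. With a replicate block Cd68 turned to -0.0177, and Spi1 was at -0.12, Aif1 at -0.12, Fcgr1 at -0.15, Mertk at 0.38, Cd14 at -0.45, Adgre1 at -0.33, Csf1r at -0.20 and Csf1 at 0.19. Only replicate numbers 2 and 3 occur in both genotypes, so the block estimates rest on the libraries with those numbers. Same-numbered libraries did not deviate together (r of -0.10 and -0.28 over 13807 rows), so the numbers were not read as pairs. The block called 0 rows, with 94 at an unadjusted p under 0.05 in edgeR. The difference in the Csf1 to Csf1r ratio ran from 0.15 to 0.33 without 1 library. Of the 10 rows most like the 8 genes, 0 were shared under Spearman's coefficient and 2 without centring; of the 3 for Csf1, 1 and 0. The 95% intervals of the 9 genes, which are not adjusted, reach 0.17 (Cd68) to 0.58 (Mertk) to either side on the log2 scale. Differences below 1.13-fold to 1.5-fold, depending on the gene, could therefore not be told from 0 even before adjustment. Calls were made on p adjusted over all tested rows, so larger differences could also have been missed.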
